A study of Mus musculus with 8 samples.

Results

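The 10 muscle ubiquitin ligase genes described here comprise 6 of the Asb family (Asb2, Asb10, Asb11, Asb14, Asb15 and Asb18), 3 of the Trim family (Trim54, Trim55 and Trim63) and the F-box gene Fbxo32, out of 37982 genes in the authors' deposited table. They were chosen by name with earlier results of these data known, from the group levels and fold changes given below, so those values are a description and carry no test of their own. RNA was taken from heart ventricles, trimmed of the atria, of C57BL/6 pups on postnatal day 7. The groups were triple mutant pups with altered Mkl2, Myh7 and Nkx2-5 (3 samples), double mutant pups with altered Mkl2 and Myh7 (3 samples), and wild type pups (2 samples). The alleles are as known from the study, since the labels give only the number of mutated genes and Nkx2-5 as the modifier. Both mutant groups share the Mkl2 and Myh7 alterations, so by genotype the triple against the double mutant differs in Nkx2-5. Their RNA also differed in Xist, given below, and the part of sex was not tested.

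A ubiquitin ligase selects the proteins that are tagged with ubiquitin, most often for breakdown by the proteasome. Asb proteins join ankyrin repeats, which bind the substrate, to a SOCS box, which docks on a Cullin 5 ligase. The muscle RING finger proteins MuRF3, MuRF2 and MuRF1, encoded by Trim54, Trim55 and Trim63, act as ligases on their own and sit on sarcomeres and microtubules. Fbxo32 encodes atrogin-1, the substrate receptor of a Skp1, Cullin 1, F-box ligase. Trim63 and Fbxo32 are best known for their rise in wasting muscle, where FoxO factors switch them on.

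The promoters of 8 of the 10 genes, 9 windows in all, were taken from RefSeq on GRCm38.p6, each running from 250 bases before an annotated start site to 50 bases into the transcript. Those of Asb15, the gene with the largest difference between the mutant groups, of Asb14, the gene lowest in the triple mutant relative to wild type, and of Asb2, the gene with the highest level, are printed 5′ to 3′ along the gene. The Asb15 window is chr6:24527894-24528193 on the plus strand, the Asb14 window chr14:26894364-26894663 on the plus strand and the upstream Asb2 window chr12:103355952-103356251 on the minus strand. Capitals mark matches, on either strand, to the E-box CANNTG, the NKX2-5 element TNAAGTG, the FoxO site GTAAACA, the CArG box of serum response factor (CC, then 6 bases of A or T, then GG) or a strict form of the MEF2 site (CTA, then 4 bases of A or T, then TAG). Looser forms of these sites were not searched.
Asb15: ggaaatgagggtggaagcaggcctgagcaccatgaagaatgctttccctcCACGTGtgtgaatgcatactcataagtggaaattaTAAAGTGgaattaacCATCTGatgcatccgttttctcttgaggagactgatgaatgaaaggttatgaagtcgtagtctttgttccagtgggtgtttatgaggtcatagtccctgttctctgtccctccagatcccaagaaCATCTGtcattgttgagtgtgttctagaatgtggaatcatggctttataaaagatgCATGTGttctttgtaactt
Asb14: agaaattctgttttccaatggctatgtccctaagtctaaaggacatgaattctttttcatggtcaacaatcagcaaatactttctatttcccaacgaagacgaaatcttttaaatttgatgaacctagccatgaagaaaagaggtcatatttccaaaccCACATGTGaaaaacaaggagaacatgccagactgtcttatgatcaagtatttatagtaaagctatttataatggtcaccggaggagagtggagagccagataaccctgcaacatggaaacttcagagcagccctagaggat
Asb2: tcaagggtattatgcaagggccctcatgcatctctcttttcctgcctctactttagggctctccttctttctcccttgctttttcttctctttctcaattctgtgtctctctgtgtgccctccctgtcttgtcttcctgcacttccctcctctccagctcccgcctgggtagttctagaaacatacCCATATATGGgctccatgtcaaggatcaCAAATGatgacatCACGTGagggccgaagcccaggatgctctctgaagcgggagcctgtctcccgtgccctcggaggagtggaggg

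The Asb15 window held 4 E-boxes and an NKX2-5 element that began at position -165 (the start site is 0), the only match to that element in the 9 windows, against 11.5% of 32851 mouse promoters with one. In the upstream Asb2 window a CArG box began at position -64, a motif found in 1.63% of all promoters. Mkl2 encodes a coactivator of serum response factor, which binds such boxes. The Asb14 window held 2 overlapping E-boxes. Each of the 9 windows held an E-box, the site of myogenic and other helix-loop-helix factors, which 72.3% of all promoters have. FoxO sites lay in the Trim63 and Asb18 windows (3.65% of all promoters), and the Asb18 window also held a MEF2 site of the strict form (0.557% of all promoters). A match is only a run of letters and does not show that a factor binds there.

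**Figure D1:**
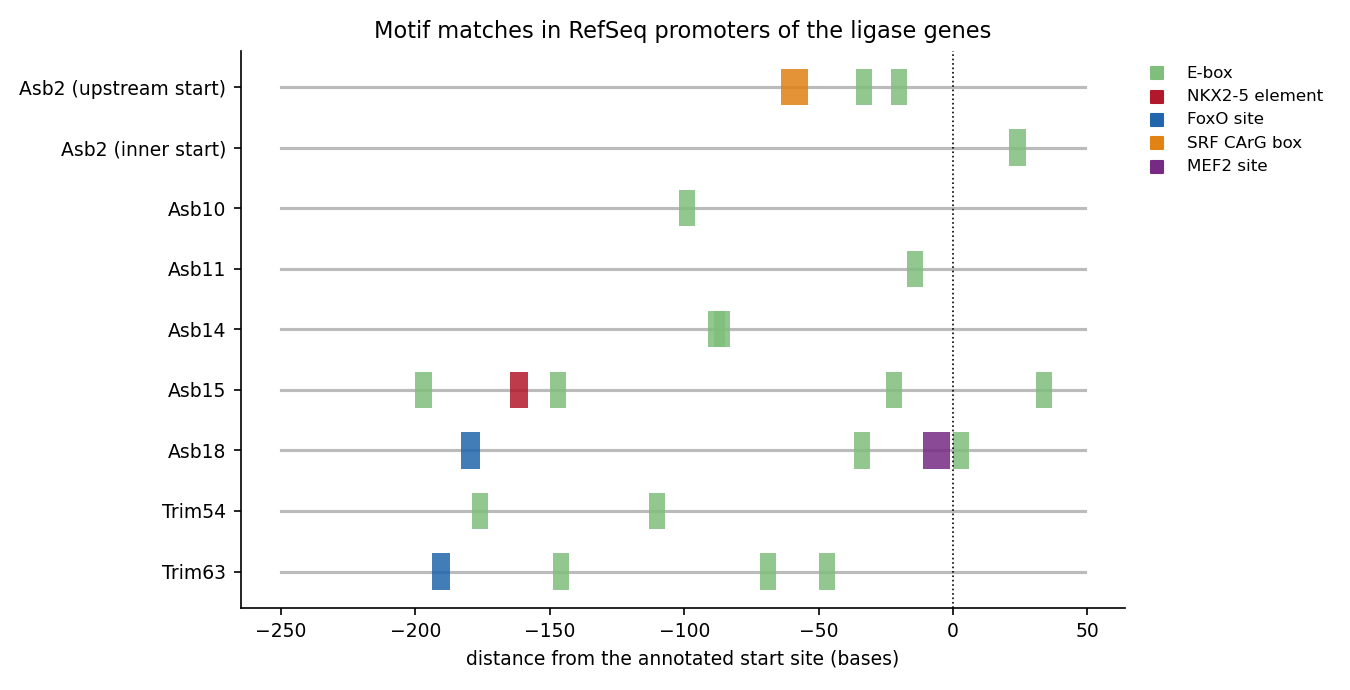
Motif matches in the 9 RefSeq promoter windows of 8 ligase genes, by distance from the annotated start site in bases (dotted line), with 1 colour per motif and boxes drawn to scale. The NKX2-5 element appears only in the Asb15 window and the CArG box only in the upstream Asb2 window.

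The table gives 1 FPKM per gene and group, so no value per pup, SD or depth was available, and fewer heart muscle cells cannot be told apart from less RNA per cell. FPKM is relative to transcript length, so levels can be set side by side between genes. Nkx2-5 stood at an FPKM of 55.2 in the triple mutant, 53.1 in the double mutant and 43.6 in wild type in the authors' deposited table, and Mkl2 at 26.0 in the triple mutant, 30.6 in the double mutant and 30.9 in wild type, with no call. Myh7 had no estimate, and none of these levels checks an allele that leaves the RNA in place. The labels do not state the sex of the pups. Xist, the X inactivation RNA, stood at an FPKM of 88.2 in the triple and 1.21 in the double mutant in the authors' deposited table, with no estimate in wild type and in a locus shared with Tsix. Ddx3y, a Y-linked gene, stood there at 10.02 in the triple mutant, 14.0 in the double mutant and 4.82 in wild type. By the authors' Cuffdiff test Xist was called in triple against double mutant (q = 0.0066). Ddx3y had q = 0.0770 in that comparison and q = 0.0066 in each mutant group against wild type. The descriptions of the samples carry 1 of 2 prefixes, both found in each group, which could not enter a test. Of 14 gene IDs listed as cardiomyocyte markers 12 had no estimate in at least 1 group because their loci exceeded the fragment limit. Of the other 2, Myoz2 stood at 417 in the triple mutant, 488 in the double mutant and 382 in wild type in the authors' deposited table. Skeletal muscle markers, which matter because most of these ligases are also skeletal muscle genes, were at or near 0: the 15 genes summed to an FPKM of 1.91 in the triple mutant, 1.84 in the double mutant and 1.17 in wild type. Among them Myh2, Myh4 and Myod1 were listed at 0 in each group.

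The mutant groups differ in Nkx2-5 by genotype and also differed in Xist. Between them, 7 of the 9 ligase genes with an estimate were lower in the triple mutant and 2 were higher. Asb15 fell 2.16-fold in the triple mutant, and Asb14, Fbxo32 and Asb10 had lower levels without passing. Asb2, Trim63 and Asb11 stood within 1.1-fold of the double mutant. The median log2 fold change of the 9 genes was -0.20, against -0.0011 over all genes tested. Markers of other heart cells had medians of the same size there, -0.23 for 4 fibroblast genes, all lower in the triple mutant, and -0.22 for 5 endothelial genes, 4 of them lower, while the 3 smooth muscle genes tested had a median of 0.20. The 2 cardiomyocyte genes tested, Ckmt2 and Myoz2, had a median of -0.34, both lower in the triple mutant (q = 0.0575 for Ckmt2 in the authors' Cuffdiff test). None of these markers was called at a q value under 0.05 by the authors' Cuffdiff test, and 2 fibroblast genes and Ckmt2 had an unadjusted p under 0.05. The measured fibroblast genes summed to an FPKM of 372 in the triple mutant, 451 in the double mutant and 405 in wild type, and the endothelial genes to 420.4 in the triple mutant, 478 in the double mutant and 478 in wild type. The part of these cells, heart muscle cells included, in the levels of the ligases was not tested. At a q value under 0.05 in the authors' Cuffdiff test, 1 of 9 was called, where 1.25% of all 12786 tested genes were. At the authors' own threshold of 0.1 it was again 1 of 9 (1.98% of all genes). An unadjusted p under 0.05 was met by 4 of 9, all lower (8.45% of all genes).

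Against wild type, the triple mutant had 5 ligase genes lower and 4 higher. Asb14 and Fbxo32 lay furthest below wild type and Trim54 and Asb18 furthest above it, and none of the 9 passed a q value under 0.05 in the authors' Cuffdiff test, where 1.52% of 12986 tested genes did. The median log2 fold change was -0.046, against -0.0026 over all genes tested, and it was -0.20 without the genes in shared loci or under an FPKM of 5. The 2 cardiomyocyte genes tested had a median of 0.32, both higher in the triple mutant, and Ckmt2 was called (q = 0.0066). The authors' threshold of 0.1 was passed by 2 of 9, Asb14 and Fbxo32, where 2.75% of all genes passed. An unadjusted p under 0.05 was met by these genes and Trim54, 3 of 9, and by 12.1% of all genes.

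In the double mutant 7 of 10 ligase genes were above wild type and 3 below. Asb15 rose 2.09-fold, Trim54 stood 1.88-fold higher without passing, and the other genes lay within 1.5-fold. The median log2 fold change was 0.21, against -0.0030 over all genes tested. The 2 cardiomyocyte genes tested had a median of 0.65, both higher in the double mutant, and Ckmt2 was called (q = 0.0066). At a q value under 0.05, and also under 0.1, 1 of 10 ligase genes was called, where 2.65% and 4.41% of 13034 tested genes were. An unadjusted p under 0.05 was met by 2 of 10 and by 16.3% of all genes. The rule for the genes used these comparisons, so nothing is read from the counts. The 3 comparisons share their groups, so a high or low level in 1 group enters both comparisons that use it.

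**Figure D2:**
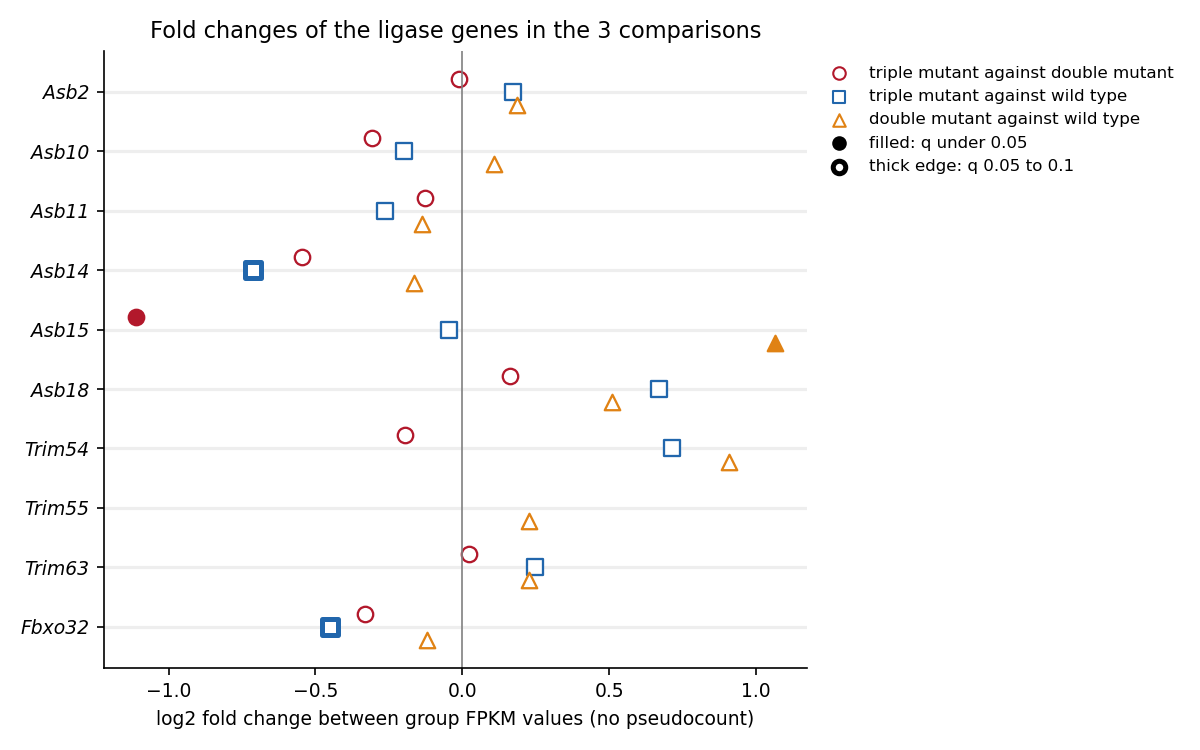
Log2 fold change of each ligase gene in the authors' deposited table (horizontal axis, no pseudocount) in the 3 comparisons, with 1 symbol per comparison. Asb15 lies far to the left for triple against double mutant and far to the right for double mutant against wild type, and it is the only gene with filled symbols (q under 0.05).

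Among the Asb genes, Asb2 had the highest level of all 10 ligases. Its product targets filamins, which crosslink actin. Asb2 (mm9 chromosome 12, 104559352 to 104594211) stood at an FPKM of 147 in the triple mutant, 148 in the double mutant and 131 in wild type in the authors' deposited table, above 97.9%, 97.8% and 97.7% of the genes with an FPKM of at least 1. The groups lay within 1.14-fold of each other, and the q values in the authors' deposited table were 0.992 for triple against double, 0.831 for triple against wild type and 0.815 for double against wild type. Its locus is shared with the gene model Gm15523, which stayed at or below an FPKM of 2.02 in each group in the authors' deposited table.

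Asb11 and Asb10 followed at moderate levels. Asb11, whose zebrafish counterpart acts on Delta in Notch signalling, lies on chromosome X (160874926 to 160897102). It stood at an FPKM of 45.0 in the triple mutant, 49.1 in the double mutant and 54.0 in wild type in the authors' deposited table. By the authors' deposited table the triple mutant was 1.20-fold below wild type, at q = 0.465. Asb10 (chromosome 5, 24038515 to 24046796) stood at 29.5 in the triple mutant, 36.4 in the double mutant and 33.8 in wild type in the authors' deposited table. Its 1.24-fold lower level in the triple than in the double mutant had q = 0.319 in the authors' deposited table.

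Asb14 (chromosome 14, 27707743 to 27728444) had its lowest level in the triple mutant and its highest in wild type. In the authors' deposited table it stood at an FPKM of 5.33 in the triple mutant, 7.79 in the double mutant and 8.73 in wild type. Its log2 fold change against wild type was -0.71 in the authors' deposited table, 1.64-fold lower, with q = 0.0923, so it passed the authors' threshold of 0.1 and not 0.05. A standard error of 0.24 is implied by the deposited p value. Against the double mutant it was 1.46-fold lower (log2 fold change -0.55, q = 0.278) in the authors' deposited table. In the authors' deposited table the double mutant was close to wild type (1.12-fold lower there, with q = 0.891).

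Asb15 was the 1 ligase gene called. Its product is a muscle-enriched Asb protein that promoted muscle growth when overexpressed in rodents. In the authors' deposited table Asb15 (chromosome 6, 24478144 to 24523164) stood at an FPKM of 2.52 in the triple mutant, 5.44 in the double mutant and 2.60 in wild type. The double mutant stood apart, and the triple mutant and wild type were close. The triple mutant fell against the double mutant with a log2 fold change of -1.11 (q = 0.0066 in the authors' deposited table). The double mutant rose against wild type with a log2 fold change of 1.07 and the same q value in the authors' deposited table. Both p values are the lowest the table holds, 5e-05, so the standard errors they imply, 0.27 and 0.26, are upper bounds. Triple mutant against wild type had a log2 fold change of -0.046 (implied standard error 0.20, q = 0.973 in the authors' deposited table).

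These Asb15 values are low ones, above 17.2% of the genes with an FPKM of at least 1 in the triple mutant, 35.1% in the double mutant and 17.8% in wild type. The locus is shared with the gene model Gm17303, listed at 0 in each group of the authors' deposited table. With shared loci left out no ligase gene is called in any comparison at a q value under 0.05. Ddx3y, given above, was also highest in the double mutant. So was Ckmt2, the mitochondrial creatine kinase of heart muscle, in a shared locus, which stood at 128 in the triple mutant, 174 in the double mutant and 90.03 in wild type in the authors' deposited table. Nppa, which encodes the atrial natriuretic peptide and shares its locus with Gm13054, was lowest in the double mutant, at 829 in the triple mutant, 505 in the double mutant and 919 in wild type in the authors' deposited table. By the authors' Cuffdiff test Nppa was called in both comparisons with the double mutant (q = 0.0066 for each). Triple mutant against wild type had q = 0.831 for Nppa in that test. The part of sex or of heart muscle content in the values of Asb15 or of the other ligase genes was not tested.

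Of the 6 Asb genes described here Asb18 had the lowest level in wild type. Asb18 (chromosome 1, 91849166 to 91911241) stood at an FPKM of 4.02 in the triple mutant, 3.60 in the double mutant and 2.53 in wild type in the authors' deposited table. Both mutant groups were above wild type, the triple mutant by 1.59-fold (q = 0.610) and the double mutant by 1.42-fold (q = 0.768), as the authors' deposited table gives them. The implied standard errors of these log2 fold changes, 0.45 and 0.46, were the widest among the 10 genes in their comparisons, so a change of this size was not detectable.

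**Figure D3:**
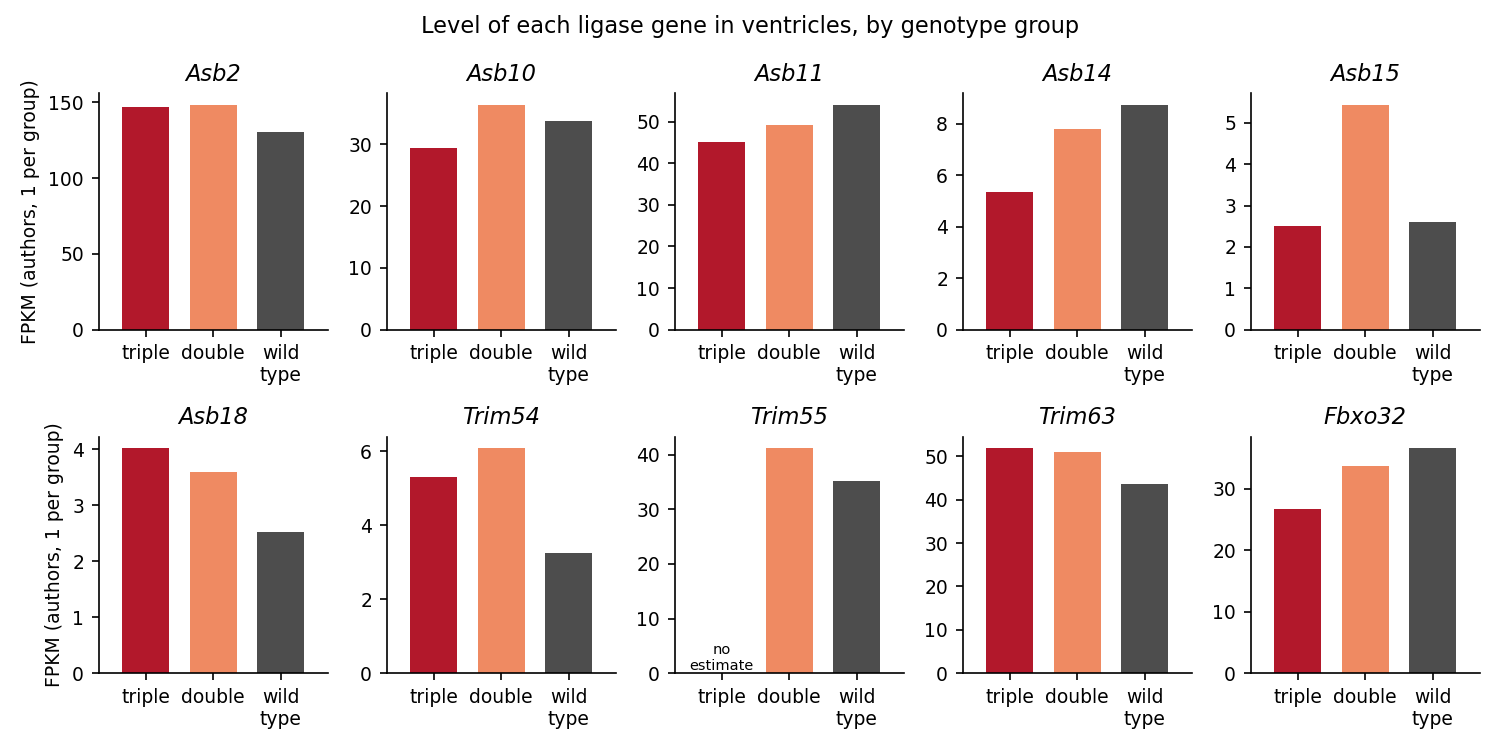
FPKM of each ligase gene in the authors' deposited table, 1 value per group, in triple mutant, double mutant and wild type ventricles, each panel with its own axis from 0. Asb15 is high in the double mutant alone. Asb10, Asb11, Asb14, Asb15 and Fbxo32 are lowest in the triple mutant, and Trim55 has no estimate there.

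The muscle RING finger genes stood at or above wild type in each mutant group with an estimate. Trim63, encoding MuRF1, which marks sarcomere proteins such as troponin I and myosin heavy chain for breakdown, is at chromosome 4, 133871035 to 133885544. It stood at an FPKM of 51.9 in the triple mutant, 51.1 in the double mutant and 43.7 in wild type in the authors' deposited table. Both mutant groups were thus 1.19-fold and 1.17-fold above wild type (q = 0.591 and 0.606 in the authors' deposited table), and they differed by 1.01-fold from each other (q = 0.985). Trim55 (chromosome 3, 19544460 to 19591599), encoding MuRF2, stood at 41.2 in the double mutant and 35.2 in wild type (1.17-fold, q = 0.519) in the authors' deposited table. In the triple mutant Trim55 is listed at 0 with a status for an excess of fragments, so its level there was not measured.

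Trim54, encoding MuRF3, which stabilises microtubules, was the low member of the trio. Trim54 (chromosome 5, 31419085 to 31440003) stood at an FPKM of 5.31 in the triple mutant, 6.08 in the double mutant and 3.24 in wild type in the authors' deposited table. Wild type was the low group. The log2 fold change against wild type was 0.71 in the triple mutant (1.64-fold, q = 0.395) and 0.91 in the double mutant (1.88-fold, q = 0.242) in the authors' deposited table, with implied standard errors of 0.36 and 0.38. Gm15469 shares the locus and stood at 2.98 in the triple mutant, 4.63 in the double mutant and 3.82 in wild type in the authors' deposited table, so the split of reads between the pair is uncertain.

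Fbxo32, which in heart targets calcineurin among others, had the same order of groups as Asb11 and Asb14. In the authors' deposited table it stood at an FPKM of 26.8 in the triple mutant, 33.7 in the double mutant and 36.6 in wild type. The triple mutant was 1.37-fold below wild type (log2 fold change -0.45, q = 0.0781 in the authors' deposited table, implied standard error 0.15), and 1.26-fold below the double mutant (q = 0.290). Fbxo32 lies at chromosome 15, 58011634 to 58155724, a locus shared with Klhl38 and Gm15943. Klhl38, a Kelch gene of muscle, stood at 3.25 in the triple mutant, 5.35 in the double mutant and 3.47 in wild type in the authors' deposited table. Trim63 and Fbxo32, the pair that rises in wasting muscle, stood on opposite sides of wild type in the triple mutant. Neither difference passed a q value under 0.05.

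**Figure D4:**
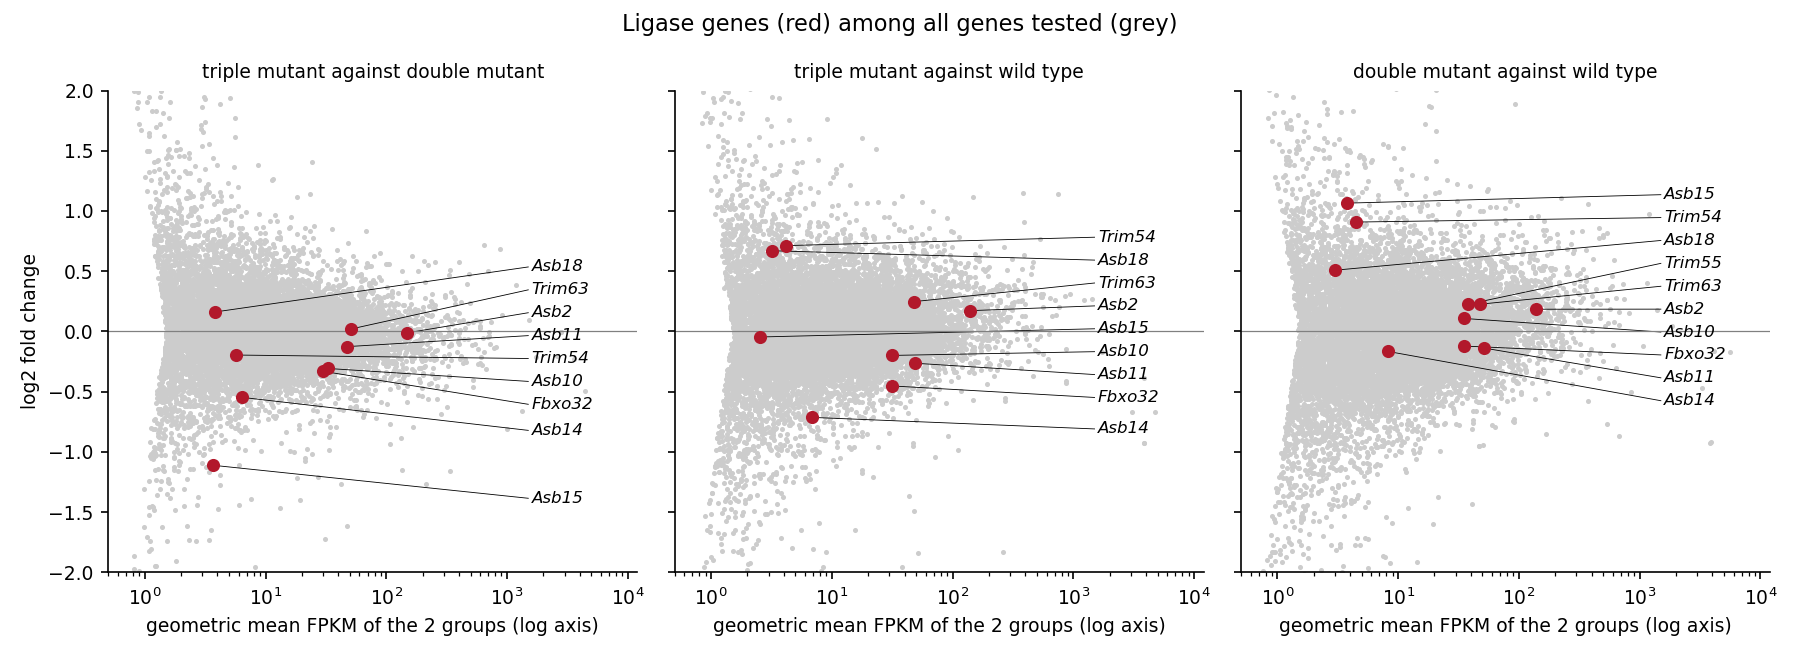
Log2 fold change against the geometric mean FPKM of both groups (log axis) for all tested genes with values above 0 in both groups (grey) and the ligase genes (red), 1 panel per comparison. Genes beyond 2 on the log2 scale are off the plot. Asb15 lies at the lower edge of the cloud for triple against double mutant and at the upper edge for double mutant against wild type, and the genes at higher FPKM lie inside it.

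The 10 genes lie on 9 chromosomes, with Asb10 and Trim54 both on chromosome 5, and by GENCODE M21 their longest coding sequences run from 323 codons in Asb11 to 634 in Asb2. Of the 10 genes 6 had a locus of their own and 4 a shared one. Summed over the 9 genes with an estimate in each group, FPKM was 317 in the triple mutant, 342 in the double mutant and 316 in wild type, and without Asb2 it was 170 in the triple mutant, 193 in the double mutant and 185 in wild type. The double mutant was the highest group for 4 of these 9 genes and the lowest for none, and the triple mutant was the lowest for 5.

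The pattern of Asb15 over the groups was most like that of Hlf, Scarna13 and Ly6e among 4798 genes with an FPKM of at least 5 in each group and a locus of their own. Likeness was the distance between pairs of log2 fold changes, of triple mutant and of double mutant against wild type, so it rests on 3 group values. Hlf, a PAR bZIP transcription factor under clock control, stood at an FPKM of 12.2 in the triple mutant, 24.5 in the double mutant and 12.6 in wild type in the authors' deposited table. Hlf passed no comparison (q = 0.327 for triple against double mutant in the authors' deposited table). Ly6e and Scarna13 were both called, lower in triple against double mutant and higher in double mutant against wild type (q = 0.0066 for each in the authors' deposited table). Ly6e, a membrane-anchored antigen, stood at 91.2 in the triple mutant, 202 in the double mutant and 104 in wild type in the authors' deposited table. The double mutant was again the high group for Scarna13, a small Cajal body RNA, at 136 in the triple mutant, 328 in the double mutant and 152 in wild type in the authors' deposited table.

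The other Asb genes and the partners of the ligases were read from lists of 82 gene IDs. In triple against double mutant none of 66 tested was called by the authors' Cuffdiff test, and 6 had an unadjusted p under 0.05 (median log2 fold change -0.055). In triple mutant against wild type 1 of 66 fell, and in double mutant against wild type 2 of 67 rose and 1 fell. These counts compare with the shares of all genes given above, and the medians were 0.030 and 0.10.

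Of 12 other Asb genes 9 were tested. Asb12 lies on chromosome X in a locus shared with Gm14818. It stood at an FPKM of 3.62 in the triple mutant, 5.38 in the double mutant and 2.5003 in wild type in the authors' deposited table. It rose 2.15-fold in the double mutant against wild type (q = 0.0356 in the authors' deposited table), and the triple mutant lay between these groups (q = 0.336 against the double mutant). Asb5, also in a shared locus, stood at 4.88 in the triple mutant, 4.80 in the double mutant and 2.66 in wild type in the authors' deposited table. Its q values there were 0.0695 for the triple and 0.0770 for the double mutant against wild type, short of 0.05. Asb8 had the highest level of these genes, at 69.8 in the triple mutant, 76.4 in the double mutant and 75.9 in wild type in the authors' deposited table. Asb4, a vascular gene, stood at 10.8 in the triple mutant, 8.37 in the double mutant and 7.43 in wild type there (q = 0.0857 for triple mutant against wild type). Asb1 stood at 7.64 in the triple mutant, 7.30 in the double mutant and 9.91 in wild type in the authors' deposited table.

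The core of the Cullin 5 ligase, to which Asb proteins dock, had 4 genes tested and none called in any of the 3 comparisons by the authors' Cuffdiff test. An unadjusted p under 0.05 was met by 3 of them in double mutant against wild type, where 16.3% of all tested genes met it. It was met by 0 in both others. All 4 were lower in the triple than in the double mutant (median log2 fold change -0.17) and above wild type in the double mutant (median 0.36). The adaptor Tceb2 (elongin B) stood at 41.1 in the triple mutant, 49.6 in the double mutant and 32.0 in wild type in the authors' deposited table (q = 0.0708 for double mutant against wild type). The scaffold Cul5 stood at 52.2 in the triple mutant, 56.9 in the double mutant and 55.3 in wild type in the authors' deposited table. The RING subunit Rnf7 had 52.0 in the triple mutant, 60.8 in the double mutant and 48.1 in wild type in the authors' deposited table. Tceb1 (elongin C) completes the list, and Tceb2 had the largest difference of the 4. Of the Fbxo32 partners, the scaffold Cul1 stood at 32.7 in the triple mutant, 30.3 in the double mutant and 28.5 in wild type in the authors' deposited table. Its RING subunit Rbx1 had 24.4 in the triple mutant, 26.8 in the double mutant and 27.7 in wild type in the authors' deposited table. Skp1a, the adaptor, had no estimate in the triple mutant, and neither Cul1 nor Rbx1 was called in any of the 3 comparisons or had an unadjusted p under 0.05.

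Of the 14 other muscle ligases and adaptors tested by the authors' Cuffdiff test none was called in any of the 3 comparisons, and at most 1 had an unadjusted p under 0.05. Fbxo40, a muscle F-box gene, stood at 85.1 in the triple mutant, 82.5 in the double mutant and 76.9 in wild type in the authors' deposited table. Fbxl22, an F-box gene of the Z-disc, had 47.3 in the triple mutant, 56.5 in the double mutant and 53.0 in wild type in the authors' deposited table. Trim72, which acts in membrane repair, had 39.9 in the triple mutant, 43.0 in the double mutant and 38.5 in wild type in the authors' deposited table. The 7 tested genes of the Kelch list, which includes Cul3, their scaffold, gave no call either. All 7 were above wild type in the double mutant (median log2 fold change 0.27). Of these, 3 had an unadjusted p under 0.05, as did 16.3% of all tested genes. Cul3 stood at 181 in the triple mutant, 168 in the double mutant and 152 in wild type in the authors' deposited table. Klhl31 had 95.8 in the triple mutant, 114 in the double mutant and 98.5 in wild type in the authors' deposited table. For Kbtbd12 the FPKM was 45.9 in the triple mutant, 46.8 in the double mutant and 38.8 in wild type in the authors' deposited table.

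Factors known to act on Trim63 or Fbxo32 held the other calls. Foxo4, a forkhead factor on chromosome X, stood at an FPKM of 11.0 in the triple mutant, 15.6 in the double mutant and 9.63 in wild type in the authors' deposited table. It rose 1.62-fold in the double mutant against wild type (q = 0.0066 in the authors' deposited table), and triple against double mutant had q = 0.0620, short of 0.05. Foxo3, the forkhead factor best tied to both ligases, stood at 34.5 in the triple mutant, 36.0 in the double mutant and 29.7 in wild type in the authors' deposited table, without passing. A short locus with the symbol Hdac4 (ENSMUSG00000073617, chromosome 1, 93825362 to 93827753) fell to 4.14 in the triple and 5.01 in the double mutant, against 7.99 in wild type (q = 0.0066 and 0.0440 in the authors' deposited table). The long Hdac4 locus beside it (ENSMUSG00000026313) stood at 5.33 in the triple mutant, 6.00 in the double mutant and 6.07 in wild type there, and passed no comparison. The glucocorticoid receptor gene Nr3c1 stood at 71.6 in the triple mutant, 75.1 in the double mutant and 71.1 in wild type in the authors' deposited table. Hdac5, a class II histone deacetylase, had 36.4 in the triple mutant, 39.3 in the double mutant and 31.6 in wild type in the authors' deposited table.

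Of 21 known substrates and partners 14 were tested in each comparison and none was called by the authors' Cuffdiff test, with at most 2 at an unadjusted p under 0.05, and among the rest 5, such as Tnni3, had failed estimates. Desmin (Des) stood at 464 in the triple mutant, 485 in the double mutant and 449 in wild type in the authors' deposited table. The autophagy receptor Sqstm1 had 180 in the triple mutant, 211 in the double mutant and 196 in wild type in the authors' deposited table. Flnc, a filamin of the Z-disc, stood at 46.9 in the triple mutant, 44.2 in the double mutant and 46.0 in wild type in the authors' deposited table. None of the 5 ubiquitin genes was called in the 3 comparisons by the authors' Cuffdiff test, and 1 had an unadjusted p under 0.05 in each. Ubb, a polyubiquitin gene, stood at 124 in the triple mutant, 159 in the double mutant and 136 in wild type in the authors' deposited table. Uba1, the ubiquitin activating enzyme, had 30.5 in the triple mutant, 29.6 in the double mutant and 27.2 in wild type in the authors' deposited table. Rps27a, a ubiquitin fusion gene, had 18.6 in the triple mutant, 17.7 in the double mutant and 25.8 in wild type in the authors' deposited table, where wild type was the high group.

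**Figure D5:**
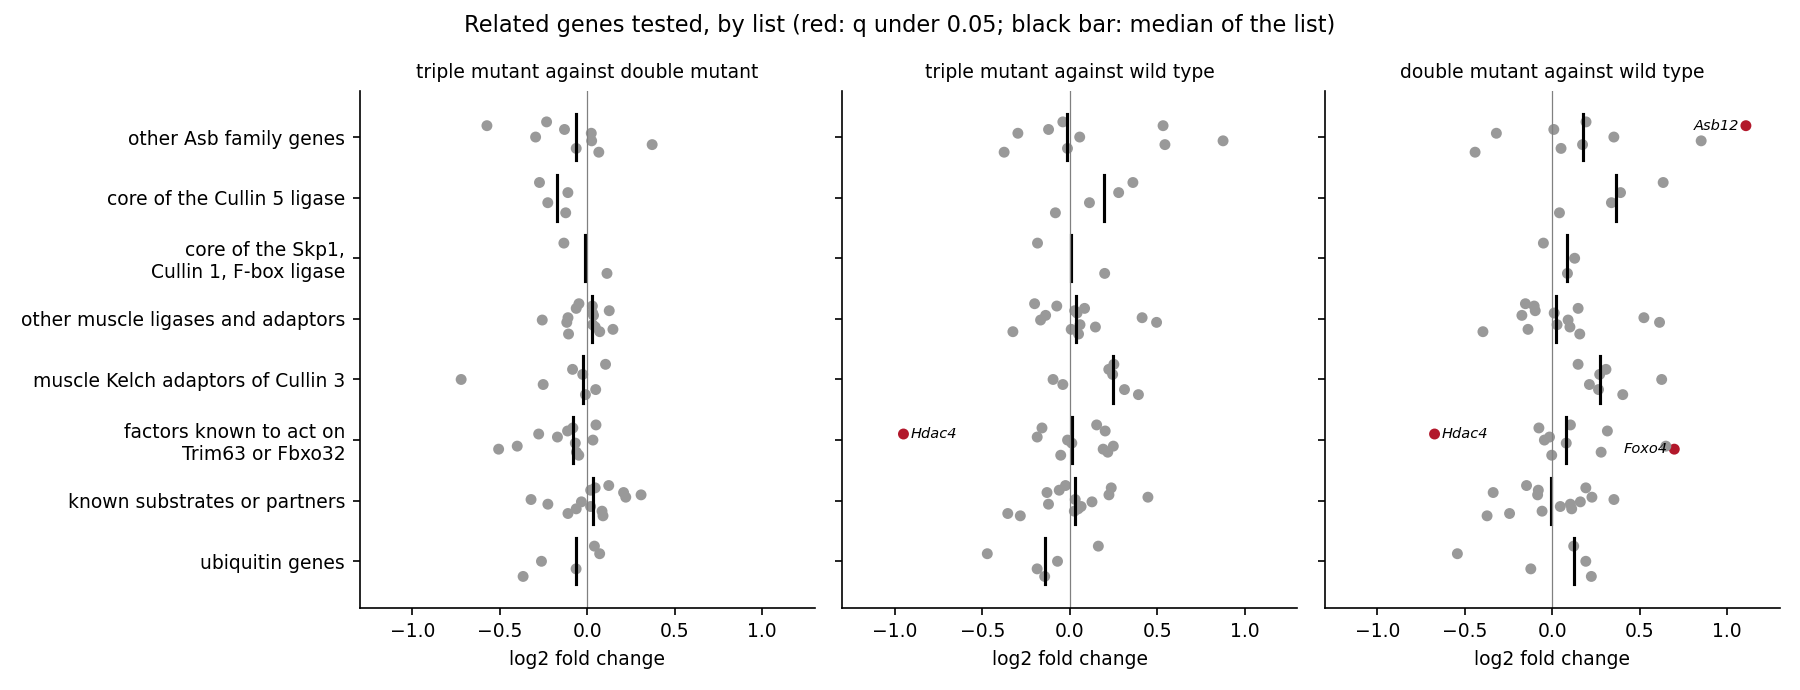
Log2 fold change of each tested gene of the 8 related lists (points, red where q is under 0.05), with the median of each list as a black bar, in the 3 comparisons. Asb12, Foxo4 and Hdac4 carry the red points, and triple against double mutant has none.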

How the data were processed

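RNA from mouse ventricles was extracted and made into stranded total RNA libraries, per the labels' protocols. Per the submitters' processing notes the tools were Cuffdiff 2.2.1, Cufflinks 2.2.1, STAR 2.5.2 and CASAVA 1.8, with the mm9 build. Which annotation, strand setting and libraries per group went in is not given in the sources used here. For each gene and group 1 FPKM value was deposited by the authors. For each of 3 comparisons they deposited a log2 value, a Cuffdiff test statistic (a score without units), a p-value and a q-value. Total depth is not kept in FPKM, so the depth is unknown and no interval can be given. The p-values measure only the spread that Cuffdiff estimated, and nothing says whether samples came from separate litters.

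The deposited log2 values equal the ratio of FPKM values with no pseudocount (largest difference 4.72e-05), and the deposited q-values match Benjamini-Hochberg values computed over all 3 comparisons at once (largest difference 5.26e-07). Differences are called at a q-value under 0.05; the authors' own mark falls at 0.1. Groups come from the sample titles. The failed status was carried by 2036 rows of 709 genes, and a value of 0 in such a row was treated as missing. Implied standard errors are the log2 fold change divided by the normal quantile of the deposited p-value. Loci are the file's own in mm9, given from 1; a locus is called shared where another gene has identical coordinates. Promoter windows (RefSeq, GRCm38.p6) and coding lengths (GENCODE M21, by Ensembl ID) were used with no change of build. The members and lists were chosen with earlier results of these data known. Genes named beyond the 10 are every listed gene called, up to 3 per list with the highest FPKM, and the 3 nearest to Asb15; Xist, Ddx3y, the mutated genes, Flnc, Asb5 and the marker genes named were picked with their values in view. Python 3.11.15, pandas 2.3.3, numpy 2.4.6 and matplotlib 3.10.9 were used. The counting and adjustment steps, not the authors' Cuffdiff test, were tested on simulated data. Alternatives were the adjustment within a comparison, the threshold, an FPKM minimum of 5, a pseudocount of 1, centring and leaving out shared loci.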

Additional observations from a re-analysis of the deposited data

How the results depend on the processing

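The values here rest on 1 FPKM per group, so leaving out a replicate was not run. No paired analysis was possible because the table holds no values per sample. Leaving out shared loci took the count of ligase genes called to 0 in triple against double mutant and to 0 in double mutant against wild type, since it removes Asb15. A q threshold of 0.1 gave 2 of 9 ligase genes in triple mutant against wild type. Among related genes 1 of 66 passed it in triple against double mutant and 3 of 66 in triple mutant against wild type. In double mutant against wild type 7 of 67 related genes did. Over all tested genes 1.98%, 2.75% and 4.41% passed in these comparisons, in that order. At a q threshold of 0.05, adjusting q values within the comparison gave 5 related genes in double mutant against wild type. At that threshold the ligase counts were the same as reported under this adjustment in all 3 comparisons. Under an FPKM minimum of 5 they were also the same in all 3 comparisons. At 0.1 the adjustment mattered in triple mutant against wild type. Asb14 then had q = 0.105 from the Cuffdiff p values and no longer passed, while Fbxo32 still passed (q = 0.0896). The median log2 fold change of the ligases kept its sign under the 4 alternatives tried in each comparison, and lay between -0.20 and -0.033 for triple mutant against wild type. For single ligases, a pseudocount of 1 or centring changed the sign of 0 of 56 values, with a largest shift of 0.24 on the log2 scale. Asb15, Asb18 and Trim54 have low FPKM, which limits how small a change can be seen.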
